A study of Mus musculus with 7 samples.

Results

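Wild-type (WT) embryonic stem cells (ESC) were compared here with WT induced pluripotent stem cells (iPSC), across autosomal genes, to describe how 2 kinds of mouse pluripotent cell with the same genotype differed. The genes described are those in which the 1 WT ESC array lay outside both WT iPSC arrays, that is, above the higher or below the lower of the 2. WT ESC lay outside in 14483 of the 21065 autosomal genes with a single symbol, and in 117 of these it was separated from the nearer iPSC array by 2-fold or more.

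RNA of mouse cells of strain 129 was measured on 7 single-colour Affymetrix whole-transcript arrays. The WT groups used here are ESC (1 array) and iPSC (2 arrays). The other arrays hold iPSC that lack Nanog (Nanog knockout, KO; 2 arrays) and mouse embryonic fibroblasts (MEF) of either genotype, with 1 array each. Replicates of iPSC are labelled biological, but whether they are separate lines is not stated, and the labels give neither the sex of any line, nor how the iPSC were made, nor which of 3 named media (ESC, 2i/LIF, MEF) each sample was grown in. A difference in medium, line or sex cannot be told apart from the difference between ESC and iPSC. The ESC group is 1 array and has no replicates. The KO iPSC and MEF arrays are given beside the results as values.

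ESC are taken from the inner cell mass of the blastocyst, whereas iPSC are somatic cells returned to a similar state by reprogramming factors. Both keep the pluripotency transcription factor network active. Reprogrammed cells are known to vary between lines, and the imprinted Dlk1-Dio3 region, whose non-coding RNAs come from the maternal chromosome, is a well-known place of such variation in mouse. Imprinted genes are expressed from the copy of 1 parent only, set by DNA methylation inherited from the germ cells.

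Sequences of 2 kinds go with the results. The first are the mature miRNAs of the Dlk1-Dio3 locus genes in which WT ESC lay 2-fold or more above both iPSC arrays, shown because these genes form the largest group from 1 place in the genome. They are from RefSeq (GRCm38.p6, chromosome 12, plus strand), 5′ to 3′, with the seed (bases 2 to 8) in capitals, and all 7 seeds differ.
mmu-miR-493-5p: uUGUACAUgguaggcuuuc
mmu-miR-493-3p: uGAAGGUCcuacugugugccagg
mmu-miR-300-5p: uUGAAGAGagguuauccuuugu
mmu-miR-300-3p: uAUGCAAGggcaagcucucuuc
mmu-miR-453: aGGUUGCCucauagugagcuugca
mmu-miR-377-5p: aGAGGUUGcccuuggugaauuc
mmu-miR-377-3p: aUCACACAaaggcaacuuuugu

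The second are promoter windows (250 bases before to 50 after the annotated start, RefSeq, GRCm38.p6) of 4 genes that were higher in WT ESC. In the windows of Igtp (chr11:58199306-58199605, plus strand) and Irgm2 (chr11:58214727-58215026, plus strand), capitals mark the core of the interferon-stimulated response element, that is GAAA, any 2 bases and GAAA again, searched on both strands. In those of Ddx4 (chr13:112652261-112652560, minus strand) and Mov10l1 (chr15:88982744-88983043, plus strand) capitals mark an E-box, CACGTG, which the window of Ybx2, the other germline gene that rose, does not hold. The motifs do not overlap, and a match is a description of letters, not a shown binding site.
Igtp: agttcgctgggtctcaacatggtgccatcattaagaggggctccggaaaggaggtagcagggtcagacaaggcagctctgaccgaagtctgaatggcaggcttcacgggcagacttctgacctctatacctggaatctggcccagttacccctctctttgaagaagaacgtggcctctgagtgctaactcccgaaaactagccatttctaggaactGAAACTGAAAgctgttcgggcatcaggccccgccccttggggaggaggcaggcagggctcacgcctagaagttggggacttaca
Irgm2: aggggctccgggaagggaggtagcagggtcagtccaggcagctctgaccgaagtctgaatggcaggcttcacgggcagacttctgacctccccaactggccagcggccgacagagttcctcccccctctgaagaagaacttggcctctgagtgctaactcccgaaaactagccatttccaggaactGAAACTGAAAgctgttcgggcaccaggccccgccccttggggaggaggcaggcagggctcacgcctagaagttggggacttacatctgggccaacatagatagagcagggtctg
Ddx4: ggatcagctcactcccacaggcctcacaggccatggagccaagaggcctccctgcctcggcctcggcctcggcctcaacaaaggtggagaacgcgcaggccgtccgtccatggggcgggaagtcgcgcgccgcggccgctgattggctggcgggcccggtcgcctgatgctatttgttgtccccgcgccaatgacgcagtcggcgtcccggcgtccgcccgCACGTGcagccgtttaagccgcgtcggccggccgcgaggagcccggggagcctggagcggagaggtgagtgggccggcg
Mov10l1: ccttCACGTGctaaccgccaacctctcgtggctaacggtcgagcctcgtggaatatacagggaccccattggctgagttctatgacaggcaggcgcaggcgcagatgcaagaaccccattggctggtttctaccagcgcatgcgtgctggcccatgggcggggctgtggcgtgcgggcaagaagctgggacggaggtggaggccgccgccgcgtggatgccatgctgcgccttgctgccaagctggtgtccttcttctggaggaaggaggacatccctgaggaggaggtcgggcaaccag

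WT ESC differed from WT iPSC replicate 2 less than the iPSC arrays differed from each other. The values are log2 intensities, and a difference of 1 on that scale is 2-fold. WT ESC and iPSC replicate 2 were 2-fold or more apart in 255 autosomal genes (SD of the gene differences 0.30), WT ESC and iPSC replicate 1 in 531 (SD 0.36), and the iPSC arrays from each other in 331 (SD 0.32). The 2 KO iPSC arrays differed by that much in 3 genes. Taking each array against the other 2, iPSC replicate 1 stood 2-fold or more above both in 163 genes and below both in 34, iPSC replicate 2 above in 13 and below in 67, and WT ESC above in 60 and below in 57. WT ESC was thus the array that stood apart in about equal numbers in the 2 directions, and iPSC replicate 1 stood apart mainly upward.

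Fibroblast signal differed between the iPSC arrays, and WT ESC lay between them. The median log2 level of 40 autosomal fibroblast markers was 8.37 in WT ESC, 9.47 in iPSC replicate 1 and 7.5 in iPSC replicate 2, against 11.93 and 12.22 in the MEF arrays. Col1a1, a collagen gene, gave 9.58 in WT ESC, 10.77 in iPSC replicate 1 and 8.64 in replicate 2. WT ESC lay below iPSC replicate 1 in 39 of the 40 genes, above replicate 2 in 33, above both in 1 and below both in 7. It lay outside both by 2-fold in 0, where the shares over all autosomal genes were 0.285% above and 0.271% below. Of the genes where WT ESC stood 2-fold above both iPSC arrays, 1 of 60 had both MEF arrays above all 3 WT pluripotent arrays. The same held for 5 of the 57 genes below, against 27.2% of all autosomal genes. Both sets were chosen for a high value on WT ESC or on both iPSC arrays, which by itself lowers such a share. The shares therefore do not measure fibroblast signal in these genes. In a bulk sample, more cells of a type and more RNA per cell cannot be told apart.

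Pluripotency markers were high on all 3 arrays. The median of 8 fixed markers was 11.15 in WT ESC and 11.38 and 11.36 in WT iPSC, against 6.14 and 6.03 in MEF. Sox2 stood at 12.31 in WT ESC and at 12.30 and 12.32 in WT iPSC, and Nanog at 12.73, 12.84 and 12.76, so their differences from the iPSC mean were 0.00 and -0.07. Pou5f1, the third core factor, stood at 8.40 in WT ESC and at 8.82 and 9.10 in WT iPSC (difference -0.57, SE 0.23, limma adjusted p = 0.42). Of the other fixed markers Dppa5a, at 6.49, 6.40 and 6.24, was near background on every array. Esrrb (8.24 against 9.41 and 9.05) and Zfp42 (9.99 against 10.47 and 10.39) lay lower in WT ESC than on both iPSC arrays. Tdgf1 and Utf1 lay higher than on both. Background was set on each array from 1394 receptor genes of smell and pheromone sensing, as the level that 95% of them do not exceed, and it lay at 6.30 in WT ESC, 6.44 in iPSC replicate 1 and 6.37 in iPSC replicate 2.

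Sex-linked genes (899 on X and 17 on Y) were left out of the counts, since X-linked genes lay lower in WT ESC as a group. The median difference, WT ESC minus WT iPSC, was -0.31 over 457 X-linked genes above background and 0.01 over 13448 autosomal ones. Xist, the RNA that silences an X chromosome, stood at 7.35 in WT ESC and at 9.65 and 7.96 in WT iPSC. The Y-linked Eif2s3y gave 6.25 in WT ESC and 6.0 and 5.17 in WT iPSC, and Uty gave 6.18, 5.51 and 4.8, all below background, whereas Nanog KO MEF gave 9.21 and 8.78. The part of a difference in sex chromosomes in the autosomal results was not tested.

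**Figure D1:**
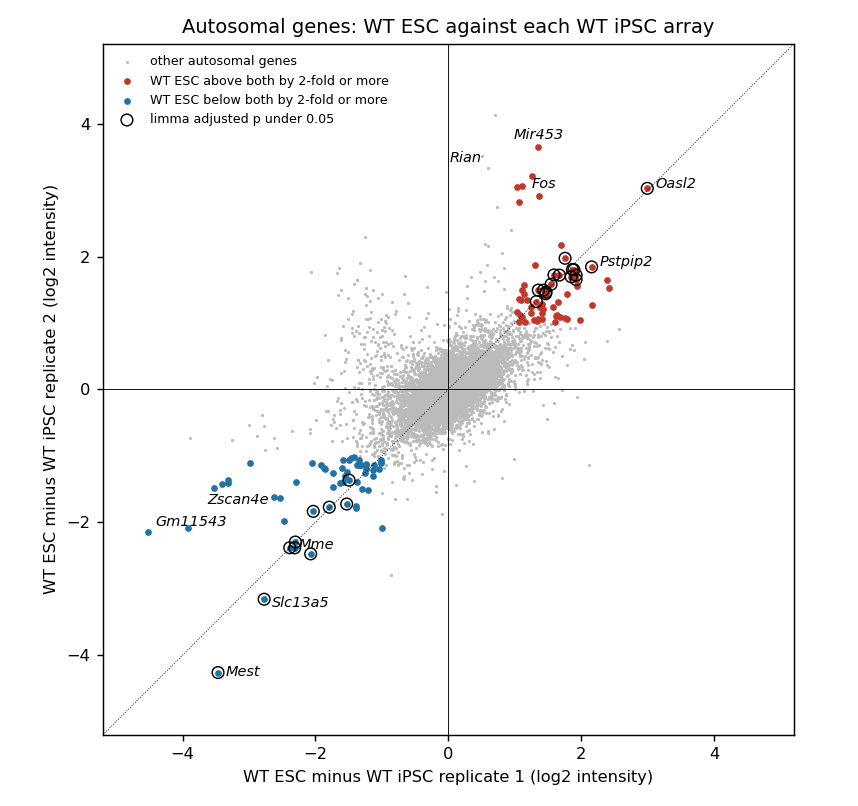
Difference in log2 intensity between WT ESC and WT iPSC replicate 1 (x axis) and replicate 2 (y axis) for 21065 autosomal genes, 1 point per gene. The 60 red and 57 blue genes lie 2-fold or more outside both iPSC arrays, and the 26 circled genes passed limma. Circled genes lie near the dotted line of equal differences, while uncircled genes such as Gm11543 and Mir453 differed much more from 1 iPSC array than from the other. The distance from this line reflects the difference between the iPSC arrays. It enters the spread used by limma, so this pattern follows in part from the test.

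Over all autosomal genes WT ESC lay above both iPSC arrays in 32.3% and below both in 36.4%, and by 2-fold or more in 0.285% and 0.271%. These shares are the background for the counts given for gene groups. At the 2-fold threshold the last genes inside were Egln3 (1.01 above) and Ccdc152 (1.0 below), and the first outside were Zfp235 (0.99 above) and Cryab (0.999 below). Of the 60 genes above, 58 were above background in WT ESC, and of the 57 below, 54 were above background on both iPSC arrays. In 6 of the 60 and 7 of the 57 the iPSC arrays were farther from each other than WT ESC was from the nearer one. Over all autosomal genes, those with WT ESC between the iPSC arrays included, this held for 13840 of 21065. Choosing genes by a 2-fold gap by itself makes it rarer, so these counts do not measure how well the iPSC arrays agree. Protein-coding genes made up 50 of the 60 and 49 of the 57 (86.5% of all autosomal genes), and miRNA or snoRNA genes 5 of the 60 and 1 of the 57 (2.34% of all).

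A limma fit of all 7 arrays, which takes the spread from the WT and KO iPSC pairs and assumes that WT ESC varies like them, called 26 autosomal genes at an adjusted p under 0.05. WT ESC was higher in 16 of them (0.076% of autosomal genes) and lower in 10 (0.0475%), the adjustment running over all 22180 genes. Each of the 26 differed by at least 1.32 on the log2 scale, and in each WT ESC was outside both iPSC arrays. The calls depended on the KO iPSC pair, whose arrays lay closer together (SD of the gene differences 0.15) than the WT iPSC pair: 0 autosomal genes passed without KO iPSC replicate 1, without KO iPSC replicate 2, or with only the 3 WT pluripotent arrays, where 1464 had an unadjusted p under 0.05. With the replicate number as a block 3 of the 26 were called. With 1 WT iPSC array left out, the comparison was 1 array against 1, and the KO iPSC pair alone gave the measured spread. Far more genes were then called, with all 26 among them. Such fits hold no spread of WT cells, so their calls say nothing more about the 26.

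Among the genes that fell, the largest difference was in Mest, an imprinted, paternally expressed gene of a hydrolase-like protein. Mest stood at 6.42 in WT ESC, just above background, and at 9.89 and 10.69 in WT iPSC. It was 14.6-fold lower in WT ESC (-3.87, SE 0.32, limma adjusted p = 0.043). The KO iPSC arrays gave 10.57 and 10.60 and the MEF arrays 9.46 and 9.96, so the other 6 arrays were well above it.

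Membrane transporters and a membrane protease followed. Slc13a5, a citrate transporter, stood at 6.71 in WT ESC and at 9.49 and 9.87 in WT iPSC (-2.97, SE 0.18, limma adjusted p = 0.026). Slc1a1, a glutamate transporter, stood at 6.73 against 9.03 and 9.03 (-2.30), and the drug efflux pump Abcb1b at 7.07 against 8.86 and 8.84 (-1.78). In these 3 genes the KO iPSC arrays lay between WT ESC and WT iPSC, at 7.5 and 7.53 for Slc13a5, 7.18 and 7.51 for Slc1a1 and 8.35 and 8.10 for Abcb1b. Mme, the peptidase neprilysin, stood at 8.47 against 10.86 and 10.85 (-2.39, SE 0.10), with 11.25 and 11.23 in KO iPSC. For Mme the MEF arrays gave 6.92 and 10.38, so its level differed between the fibroblast samples as well.

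The other genes that fell were Xaf1, Eprn, Cyp2b23, Trpa1 and Slc35g1. Xaf1, an interferon-inducible gene that promotes apoptosis, stood at 8.25 in WT ESC and at 10.28 and 10.08 in WT iPSC (-1.93, SE 0.14). Eprn, a long non-coding RNA, stood at 6.70 against 9.02 and 9.09 (-2.35), and was at 5.36 and 5.06, below background, in KO iPSC. Cyp2b23, a cytochrome P450, was below background in WT ESC (6.03 against 8.10 and 8.51) and at least 4.02-fold lower, while KO iPSC gave 10.53 and 10.62. The cation channel gene Trpa1 was also below background in WT ESC (5.44 against 6.97 and 7.16, at least 1.70-fold lower). Slc35g1, of a solute carrier family, stood at 8.91 against 10.40 and 10.27 (-1.43).

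Among the genes that rose, Oasl2 led by a wide margin. Oasl2, an interferon-induced relative of the oligoadenylate synthetases, stood at 8.93 in WT ESC and at 5.93 and 5.90, below background, in WT iPSC. The rise was at least 5.76-fold (fit: 3.01 on the log2 scale, SE 0.11, limma adjusted p = 0.0064). KO iPSC gave 5.35 and 5.43, WT MEF 5.80 and KO MEF 7.35. Igtp and Irgm2, 2 immunity-related GTPases that interferon induces, rose as well. Igtp stood at 6.98 against 5.55 and 5.49 (at least 1.49-fold) and Irgm2 at 7.51 against 6.04 and 6.07 (at least 2.15-fold). They are neighbours on chromosome 11, with 0 measured genes between them, and their promoter windows share an identical run of 61 bases, and whether their probe sets read each other's transcripts was not tested.

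Germline genes were a further group among those that rose. Ddx4, the germ cell RNA helicase, stood at 9.07 in WT ESC and at 7.15 and 7.35 in WT iPSC (1.82, SE 0.16, limma adjusted p = 0.048). Ybx2, a Y-box protein that binds stored germ cell mRNA, stood at 8.77 against 7.22 and 7.18 (1.56, SE 0.11). Mov10l1, a helicase of the piRNA pathway, stood at 8.69 against 7.36 and 7.36 (1.32, SE 0.10). The KO iPSC arrays lay below WT ESC in all 3, at 6.33 and 6.09 for Ddx4, 7.55 and 7.42 for Ybx2 and 6.38 and 6.39 for Mov10l1. The MEF arrays gave 4.76 to 6.57 for these 3 genes.

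The other genes that rose had varied roles. Pstpip2, a membrane-bending F-BAR protein, stood at 8.92 against 6.76 and 7.07 (2.00, SE 0.16), but its other probe set gave a difference of 0.12. Myb, a transcription factor of progenitor cells, stood at 9.95 against 8.10 and 8.25 (1.77), and Rasgrp4, a Ras activator, at 10.24 against 8.88 and 8.74 (1.42). Their other probe sets gave 0.32 and 0.20, so the sizes of these 3 depend on the probe set. Slc38a3, a glutamine transporter, stood at 8.83 against 7.07 and 6.86 (1.87), the receptor gene Tarm1 at 8.48 against 6.61 and 6.68 (1.84), and the zinc finger gene Zfp493 at 9.89 against 8.30 and 8.17 (1.66). Atp10a, a lipid flippase listed among the imprinted genes, stood at 8.91 against 7.24 and 7.19 (1.70), with 9.16 and 8.76 in MEF. The remaining 3 were 2610528J11Rik (1.79), Gm5091 (at least 1.82-fold) and Fam83b (at least 1.42-fold), the last 2 below background on both iPSC arrays.

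**Figure D2:**
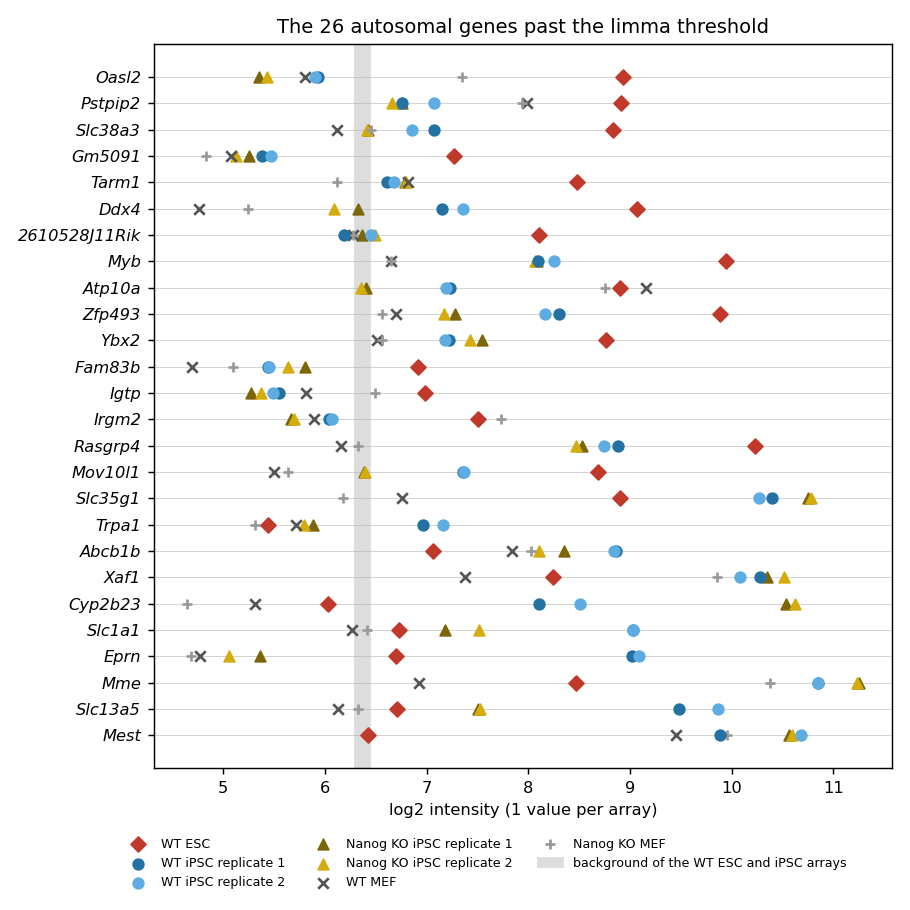
Log2 intensity of the 26 autosomal genes that passed limma, 1 symbol per array, ordered by the WT ESC minus WT iPSC difference. The 2 WT iPSC arrays are farthest apart in Mest, by 0.797, and within 0.404 in the other genes, and WT ESC lies outside them. A small distance between the iPSC arrays by itself favours a limma call. KO iPSC lie near WT iPSC in some genes, such as Mest and Xaf1, and away from both WT groups in others, such as Cyp2b23 and Eprn.

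Several genes with large gaps did not pass limma. Gm11543 stood at 5.96 in WT ESC, below background, and at 10.48 and 8.11 in WT iPSC (limma adjusted p = 0.27). It was at least 7.97-fold lower than the mean of the iPSC arrays, which were 2.38 apart, so by less against replicate 2. Gm11546, at 4.47 against 8.39 and 6.56, lies near it on chromosome 11, and the gene between them, AA623943, had WT ESC 0.62 below both. Calcoco2, an autophagy receptor, stood at 7.52 against 10.14 and 9.14, and Atp2b4, a calcium pump, at 7.02 against 9.55 and 8.64. Arl14epl came closer to the threshold, at 9.12 against 11.60 and 11.10 (-2.23, limma adjusted p = 0.069). On the side of higher WT ESC, the transcription factor gene Pou2f3 stood at 8.20 against 5.81 and 6.55, Gstm3 at 8.91 against 7.2 and 6.74, the G protein gene Gna14 at 9.10 against 6.68 and 7.58, and Rps23rg1 at 9.51 against 7.57 and 7.96. Slc13a5 and Xaf1, both lower in WT ESC, also lie close on chromosome 11, with 1 measured gene between them that lay 0.08 below both.

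The Dlk1-Dio3 region on chromosome 12 gave the largest group from 1 place. It was taken as all 54 measured genes from Dlk1 to Dio3, after the values of its members had been seen, and so it has no test. WT ESC lay above both iPSC arrays in 43 of the 54 genes (79.6%, against 32.3% of all autosomal genes) and below both in 2. Of its 43 miRNA genes WT ESC was above both in 36 and below both in 0, and it was above both in 5 of 5 snoRNA genes. Many of these miRNA genes were dim, and WT ESC was above background in only 31 of the 54 genes. Among those 31 it lay above both in 24 (77.4%) and below both in 0. WT ESC exceeded both by 2-fold or more in 5 genes, Mir377, Mir453, Mir300, AF357426 and Mir493. The array reads RNA of these loci, and whether the signal comes from a mature miRNA, its hairpin or the long host transcript was not tested.

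In these 5 genes WT ESC was the highest of the WT arrays by the choice of genes, and iPSC replicate 1 lay above replicate 2. Mir453 stood at 10.20 in WT ESC, 8.84 in iPSC replicate 1 and 6.55 in replicate 2. Mir377 stood at 7.78, 6.41 and 4.87 in the same order, and Mir493 at 7.86, 6.80 and 5.04. The snoRNA gene AF357426 stood at 7.18, 5.92 and 3.97, and Mir300 at 5.78, 4.47 and 3.91, the latter below background on all 3 arrays. iPSC replicate 2 was the lowest array in each, and replicate 1 lay between it and WT ESC.

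Rian, the long non-coding RNA that hosts snoRNAs of the region, stood at 10.25 in WT ESC and at 9.65 and 6.92 in WT iPSC. Its difference of 1.96 (SE 1.06, limma adjusted p = 0.56) is smaller than the distance between the iPSC arrays, and the 5 genes above had adjusted p from 0.14 to 0.37. The snoRNA gene AF357425 showed the same order, at 11.22, 10.71 and 7.71. Meg3, the maternally expressed long RNA at the start of the cluster, stood at 6.98 against 6.72 and 6.71, near background, and the paternally expressed Dlk1 at 7.77 against 8.0 and 7.58. Over the 54 genes the median of WT ESC minus iPSC replicate 1 was 0.28 and that of WT ESC minus replicate 2 was 0.80. Replicate 1 lay above replicate 2 in 51 genes. The KO iPSC arrays gave list medians of 6.93 and 7.13 against 6.71 in WT ESC and 6.21 and 5.45 in WT iPSC.

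**Figure D3:**
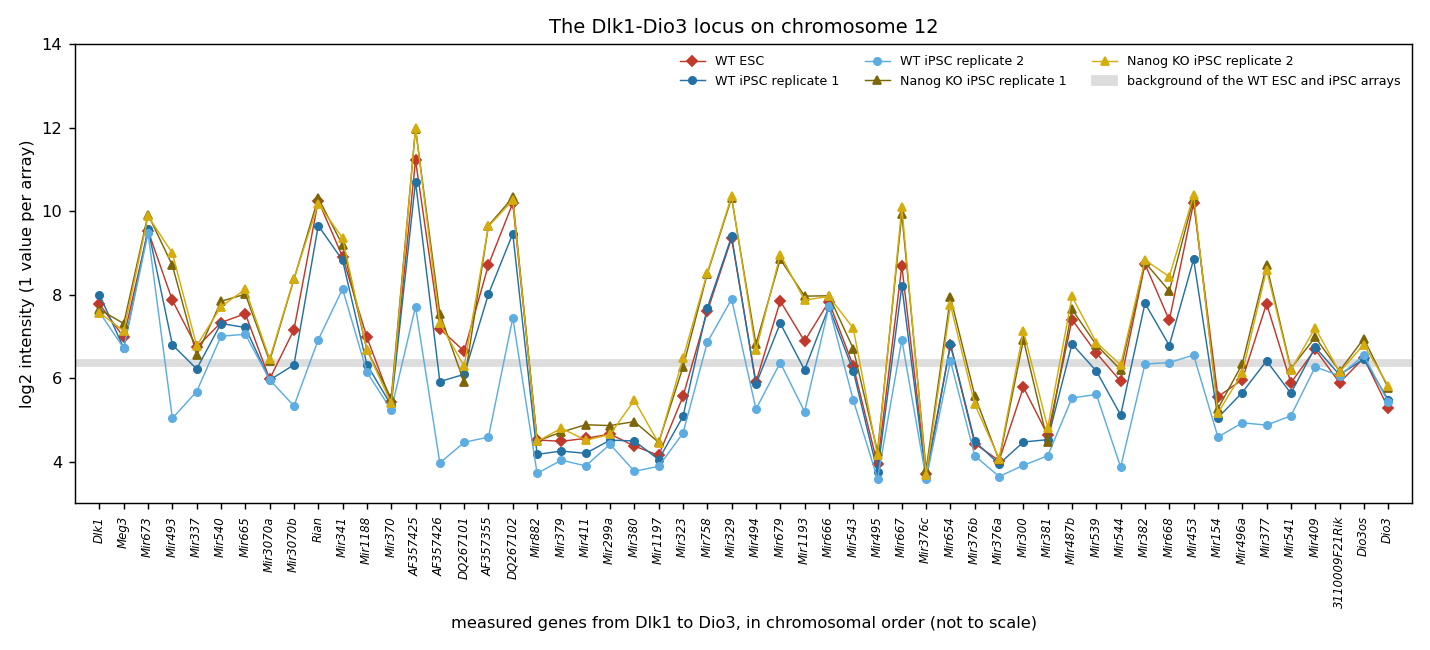
Log2 intensity of the 54 measured genes from Dlk1 to Dio3 in chromosomal order, on the WT ESC, WT iPSC and Nanog KO iPSC arrays. WT ESC lies above both WT iPSC arrays in 43 of the 54 genes, and WT iPSC replicate 2 is far below the other arrays at Rian, the snoRNA genes and several miRNA genes. Dlk1 and Dio3 at the ends differ little.

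Imprinted genes outside this locus lay on both sides. Of 27 such genes of the paternally expressed list WT ESC was above both iPSC arrays in 7 and below both in 13, with a median difference of -0.06, and of 30 of the maternally expressed list it was above in 15 and below in 9 (median 0.07). The median over all autosomal genes was -0.01, with 32.3% above both and 36.4% below both. Besides Mest, the retrotransposon-derived Peg10 lay lower in WT ESC (9.74 against 10.41 and 11.09), and so did the zinc finger gene Plagl1 (7.28 against 9.03 and 8.05, whose other probe set gave -0.15). Zdbf2 lay higher (10.42 against 9.04 and 9.46), as did the placental growth regulator Phlda2 (10.65 against 8.08 and 9.74). Of these 4, none passed limma.

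Genes of the p53 response lay lower in WT ESC, most of them by little. The list holds targets of the tumour suppressor p53 with apoptosis and senescence genes. Of its 35 measured autosomal members WT ESC was below both iPSC arrays in 28 (80.0%, against 36.4% of all) and above both in 2, Ddit4 and Bcl2. The median difference was -0.35, 5 members lay below both by at least 0.5 (1.61% of all autosomal genes; 2.16% lay above by as much), and 0 passed limma. Against each iPSC array alone WT ESC was lower in 30 (replicate 1) and 31 (replicate 2) of the 35.

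The p53 targets with the largest gaps were Plk2, a polo-like kinase, at 7.74 in WT ESC against 9.04 and 9.23 (-1.40, SE 0.13, limma adjusted p = 0.053), and Perp, a membrane protein of apoptosis and cell contacts, at 8.90 against 9.91 and 9.99 (-1.05, adjusted p = 0.068). Phlda3, an AKT inhibitor, stood at 9.94 against 10.64 and 10.71, the cyclin gene Ccng1 at 11.55 against 12.11 and 12.16, and Mdm2, the ubiquitin ligase that degrades p53, at 10.51 against 11.05 and 11.11. Cdkn1a, the p21 inhibitor of the cell cycle, stood at 11.68 against 12.04 and 12.004. In these genes the iPSC arrays lay within 0.2 of each other. For 18 of the 35 members both MEF arrays lay above all 3 WT pluripotent arrays, against 27.2% of all autosomal genes. The fibroblast median of WT ESC lay between those of the iPSC arrays. The part of fibroblast signal in this list was not tested.

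Genes of the 2-cell-like state, a rare and reversible state of cultured ESC that resembles the early embryo, lay lower in WT ESC, but the size rested on iPSC replicate 1. Of 24 members WT ESC was below both iPSC arrays in 20 (83.3%) and above both in 1, Duxf3, a transcription factor gene that drives the state and was below background on all 3 arrays, and 0 passed limma. Zscan4b stood at 7.11 in WT ESC and at 10.51 and 8.53 in WT iPSC, and Zscan4c at 6.15 against 9.14 and 7.25. The median of WT ESC minus iPSC replicate 1 was -0.83 and that of WT ESC minus replicate 2 was -0.24. Members of these multi-copy families are nearly identical, and whether their probe sets read each other's transcripts was not tested. WT ESC was above background in 8 of the 24.

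Glycolysis and hypoxia genes lay higher in WT ESC. Of 29 members WT ESC was above both iPSC arrays in 19 (65.5%) and below both in 3, with a median difference of 0.32, and 0 passed limma. Egln3, an oxygen-sensing prolyl hydroxylase, stood at 11.25 against 9.65 and 10.24, its relative Egln1 at 9.89 against 9.01 and 9.20, and Ndrg1, a hypoxia-induced gene, at 10.03 against 9.09 and 9.20. The glucose transporter Slc2a1 (12.92 against 12.84 and 12.98) and the enzyme gene Ldha (9.08 against 9.09 and 9.58) did not follow. Hif3a, a hypoxia-inducible factor subunit outside the list, stood at 9.11 against 7.32 and 8.04, and Ndufa4l2, a hypoxia-induced mitochondrial gene also outside it, at 9.26 against 7.09 and 7.99. Both were chosen after their values were seen.

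Amino acid stress genes and tRNA synthetases also lay higher, by less. Of 35 members WT ESC was above both in 25 (71.4%) and below both in 2, with a median of 0.23, and 0 passed limma. Atf4, the transcription factor of this response, stood at 9.74 against 9.38 and 8.82, and its glutathione-degrading target Chac1 at 10.49 against 9.89 and 8.33. Cth, an enzyme of cysteine synthesis, stood at 10.53 against 9.59 and 10.02. Asns, another target, did not follow (12.18 against 12.29 and 12.06).

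**Figure D4:**
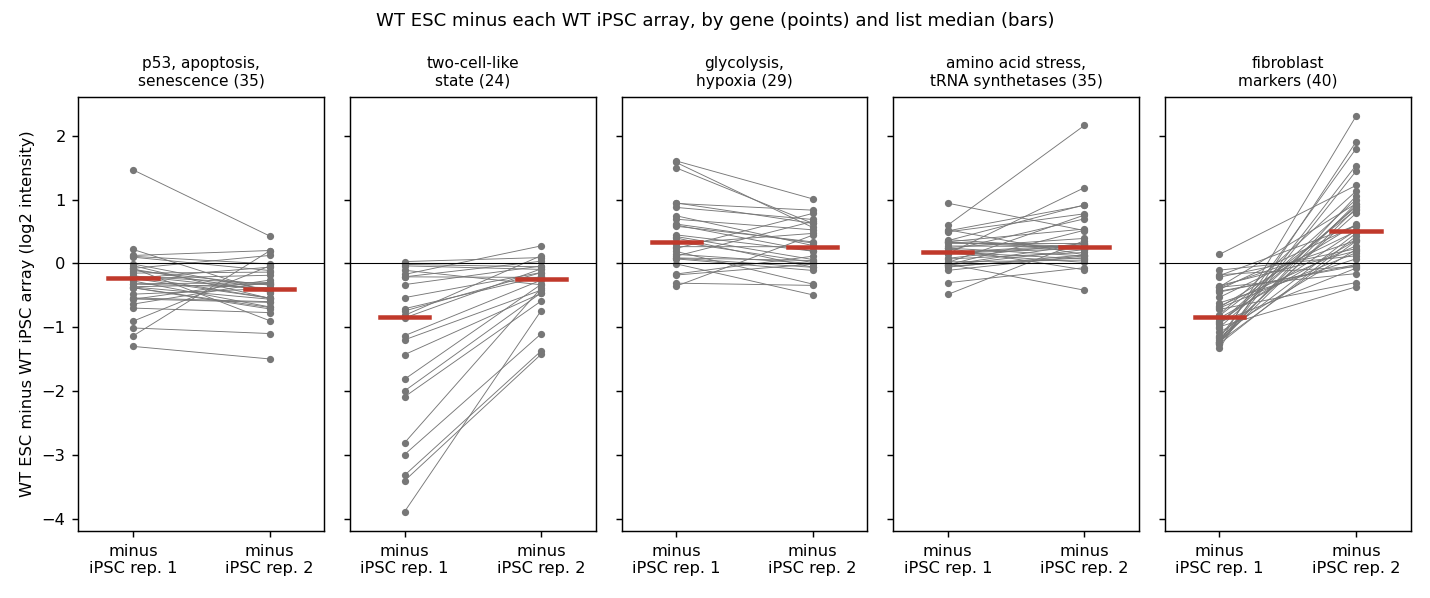
WT ESC minus WT iPSC replicate 1 and minus replicate 2 (log2 intensity) for each member of 5 gene lists, with lines joining a gene and red bars at the list medians. The p53 list lies below 0 against both arrays (medians -0.24 and -0.39), the glycolysis and amino acid lists above 0, and the 2-cell-like list mainly below 0 against replicate 1. Fibroblast markers cross 0, with medians of -0.84 and 0.51.

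Early developmental genes tended to split by stage, with exceptions in both lists. Of 19 naive pluripotency genes WT ESC was below both iPSC arrays in 12 (63.2%) and above both in 4 (21.1%). The naive median was -0.19, or -0.26 against iPSC replicate 1 and -0.06 against replicate 2. Of 22 primed and formative epiblast genes WT ESC was above both in 13 (59.1%) and below both in 4 (18.2%), with a median of 0.38. Over all autosomal genes 32.3% were above both and 36.4% below both. In neither list did a member pass limma. On the naive side the orphan receptor Esrrb stood at 8.24 against 9.41 and 9.05, Tfcp2l1 at 11.48 against 12.19 and 12.12, and Tbx3 at 11.07 against 11.89 and 11.62, while Klf2 went the other way (11.18 against 10.83 and 10.5). So did Dppa3, a factor that protects DNA methylation in the fertilised egg, at 8.20 against 6.71 and 7.26. On the primed side Lefty1, an inhibitor of Nodal, stood at 10.18 against 9.05 and 8.75, Zic2 at 11.03 against 10.19 and 9.97, and Fgf5, a marker of the epiblast after implantation, at 7.67 against 6.89 and 7.0. Otx2 lay between the iPSC arrays (8.48 against 8.34 and 8.71). Among the 4 primed genes below both were Cdh2 (8.26 against 9.24 and 8.89) and Nodal (8.74 against 8.90 and 9.12).

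In epithelial junction genes WT ESC lay above both iPSC arrays in 20 of 33 cases (60.6%) and below both in 3 (9.09%). The shares over all autosomal genes were 32.3% and 36.4%. The median difference of the list was 0.19, and 0 members passed limma. The difference came mainly from iPSC replicate 1: the median of WT ESC minus replicate 1 was 0.43 and that of WT ESC minus replicate 2 was 0.06. The splicing factor Esrp1 stood at 8.88 against 7.12 and 7.81. The fibroblast median was highest and the epithelial median lowest in iPSC replicate 1, while WT ESC exceeded replicate 2 in both, and the part of fibroblast signal in this list was not tested.

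The interferon and germline lists were mixed beyond the genes that passed. Of 53 interferon-stimulated genes WT ESC was above both iPSC arrays in 27 (50.9%) and below both in 13 (24.5%). The shares over all autosomal genes were 32.3% and 36.4%. The list median was 0.13, and of the members that passed limma 3 rose and 1, Xaf1, fell. Herc6 (6.01 against 7.16 and 6.98) and Oas1g (6.67 against 7.79 and 7.33) lay lower, while the class I antigen H2-K1 (9.34 against 8.58 and 8.77), the DNA sensor Zbp1 (8.02 against 7.26 and 7.42) and Irf1 (8.85 against 8.18 and 8.32) lay higher. The core of the interferon-stimulated response element was found in the promoter windows of 22 of 42 interferon-stimulated genes with a window (52.4%), against 3.93% of 16221 autosomal genes. Among those with WT ESC above both it was in 12 of 22 (54.5%), close to the share of the list. Among those below both it was in 2 of 10. The other matches were in genes with WT ESC between the iPSC arrays. The counts therefore do not show that the motif goes with a higher level in WT ESC. It was found in the windows of Igtp and Irgm2 and not in those of Oasl2 and Xaf1.

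Of 43 germline and meiosis genes WT ESC was above both in 18 (41.9%) and below both in 17 (39.5%), with a median of 0.08. The shares over all autosomal genes were 32.3% and 36.4%. Sohlh2, a germ cell transcription factor, lay lower (8.12 against 9.71 and 9.51, limma adjusted p = 0.053), as did Dazl, an RNA-binding protein of germ cells (7.93 against 8.61 and 9.24), and Kitl, the ligand of Kit (5.66, below background, against 6.49 and 6.53). Prdm1, a repressor needed for germ cell fate, lay higher (8.53 against 7.37 and 7.52). The E-box CACGTG was in 11 of 37 windows of the list (29.7%), against 9.18% of autosomal genes. It was in 4 of 14 with WT ESC above both (28.6%) and 3 of 16 below both (18.8%). The other matches were in genes with WT ESC between the iPSC arrays.

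Some immediate early genes lay higher in WT ESC than in both iPSC arrays and differed widely between the latter. Fos stood at 10.02 in WT ESC, 8.91 in iPSC replicate 1 and 6.95 in replicate 2, and Fosb at 9.81, 8.78 and 6.77, with 10.70 to 11.36 in KO iPSC. Over 27 immediate early and ERK target genes WT ESC was above both in 15 (55.6%) and below both in 5 (18.5%), with a median of 0.12. The shares over all autosomal genes were 32.3% and 36.4%. Jun (10.11 against 9.26 and 8.59) and the ERK inhibitor Spry1 (9.82 against 8.51 and 8.90) were among the higher ones. Myc (9.43 against 10.10 and 10.15) and Etv1 (8.41 against 9.09 and 9.59) were among the lower ones. None passed limma.

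In 4 further lists WT ESC lay 2-fold outside both iPSC arrays in no gene: 0 of 27 G2/M, 0 of 25 G1/S, 0 of 24 cholesterol and fatty acid synthesis and 0 of 18 histone genes. Over all autosomal genes the shares were 0.285% above and 0.271% below. A count of 0 in lists of this size is therefore near the background, and other lists here had it too. Median differences were 0.06, 0.01, -0.11 and 0.13. For the cholesterol and fatty acid genes the median was 0.09 against iPSC replicate 1 and -0.24 against replicate 2, so its sign depended on the iPSC array. Among 19 Wnt targets Notum, a secreted Wnt inhibitor, lay lower (7.4 against 9.15 and 8.67, with -0.48 for its other probe set), and the list median was 0.00. Among 20 DNA methylation genes the cofactor Dnmt3l lay lower (10.01 against 10.85 and 10.65) and the median was -0.03. WT ESC was above both in 16 of 26 lysosomal genes (61.5%) and below both in 4 (15.4%), with a median of 0.18 and Idua 1.04 higher. It was below both in 10 of 16 trophectoderm genes (62.5%) and above both in 2 (12.5%), with a median of -0.26. Over all autosomal genes 32.3% were above both and 36.4% below both. Medians were -0.08 for 20 neural genes, 0.03 for 25 macrophage and blood genes and 0.01 for 19 primitive endoderm genes, among which Cubn, an endocytic receptor, lay higher (7.57 against 5.92 and 6.25).

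**Figure D5:**
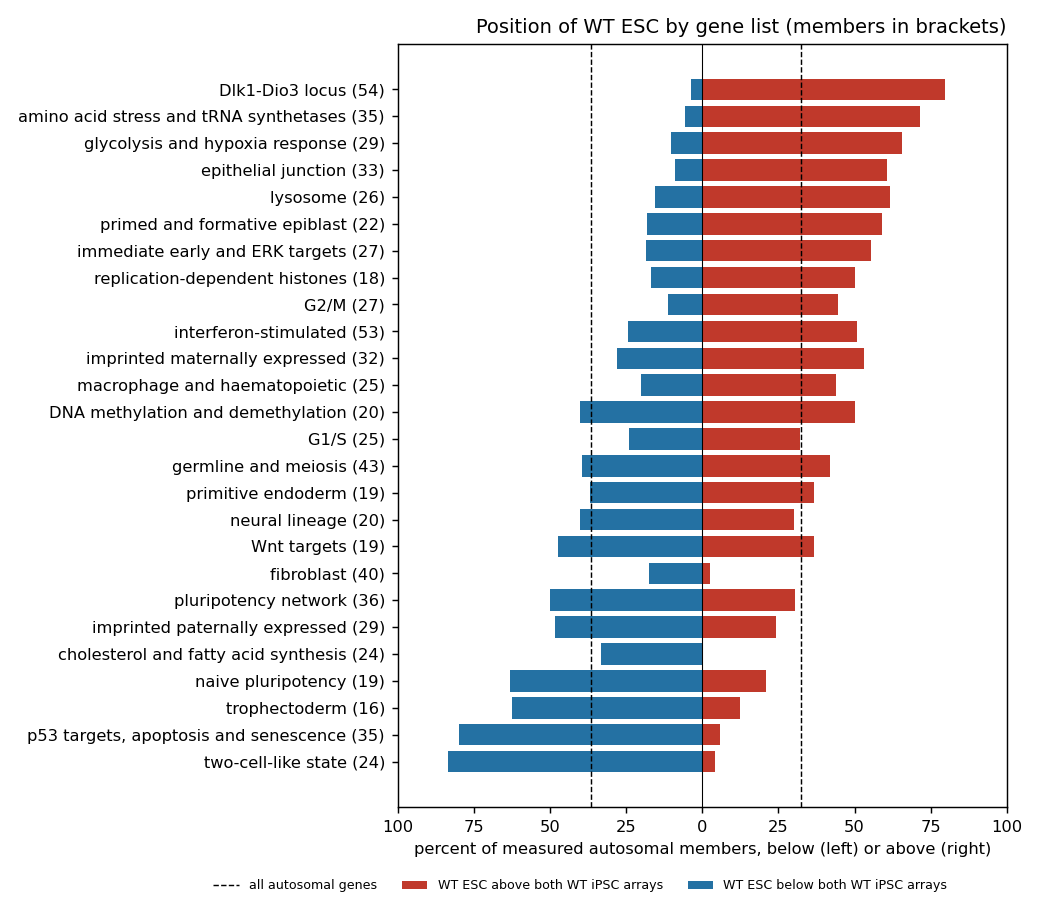
Percent of the measured autosomal members of each list in which WT ESC lies above both WT iPSC arrays (red, right) or below both (blue, left), with dashed lines at the values of all autosomal genes, 32.3% and 36.4%. The Dlk1-Dio3 locus and the amino acid and glycolysis lists reach furthest to the right, and the 2-cell-like and p53 lists furthest to the left. Few fibroblast markers are outside in either direction.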

How the data were processed

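Values for 7 samples were the authors' deposited probe set intensities, linear, from RMA; the submitters' processing notes name Affymetrix Expression Console 1.3.0.187. The genome build of the array annotation is not given in the sources used here. Intensities ran from 9.67 to 13043. The log2 was taken here with no further normalization. Of 33649 probe sets 23521 had 1 symbol, 1814 had several and 8314 had none or were not listed, and those 2 classes were not used. RefSeq (GRCm38.p6) matched 23328 by Entrez identifier and gave chromosomes. The brightest probe set stood for each of 22180 genes (1082 had several).

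WT ESC and WT iPSC were compared with limma 3.58.1 (R 4.3.3), two-sided, which fitted a mean for each group on all 7 arrays (2 residual degrees of freedom), with Benjamini-Hochberg adjustment over all genes. The fit was tested on simulated data in which all arrays of a gene had the same spread. That test does not cover the unequal WT and KO iPSC pairs here (SD of the gene differences 0.32 and 0.15). The p-values rest on the spread within the WT iPSC and KO iPSC pairs and hold no measured spread of ESC. The small number of arrays limits their precision. Where every array on the dim side lay below background, folds are lower bounds ("at least"), set against the mean background of those arrays. For genes lower in WT ESC the bright side is the mean of the 2 iPSC arrays, so the fold against the nearer one can be smaller. Named genes were those past an adjusted p of 0.05, the 15 with the largest gap in each direction, up to 4 per list with a gap of at least 0.5, and fixed markers. Other list members (Herc6, Mdm2, Klf2 and the like) were picked after their values were seen. Members and the 25 lists (757 symbols, 671 measured, 86 not analysed here) were chosen with earlier results of these data known, so no list has a test. No column lay outside the 7 samples (0 unmapped). Alternatives covered arrays left out, scaling, variance model, dim genes, probe sets and the replicate number.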

Additional observations from a re-analysis of the deposited data

How the results depend on the processing

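Counts of autosomal genes called by limma (16 higher and 10 lower) depended on the arrays that set the spread. Leaving out 1 iPSC array at a time gave 0 to 1079 higher and 0 to 996 lower. The 3 WT pluripotent arrays alone gave 0 and 0 (1464 with an unadjusted p under 0.05), trend and robust fitting 34 and 38, removal of the dimmest 33% of genes 9 and 5 and of the dimmest 50% 0 and 1 (fewer genes tested), and quantile normalization 11 and 6. With the replicate block the counts were 1 and 2. Same-numbered WT and KO iPSC arrays shared only a number (correlation of the replicate differences 0.017 over 2 pairs), WT ESC has none, and the block leaves fewer degrees of freedom. Centring on medians kept all 26 calls and quantile normalization 16. The cause of these changes was not tested beyond the arrays and genes removed. WT ESC was 2-fold above in 154 to 221 genes and 2-fold below in 101 to 310 against 1 iPSC array alone, and 2-fold above in 31 without the dimmest 50% of genes. The 26 called genes kept their direction under each alternative that tested them. Each lay outside both WT iPSC arrays, so leaving out arrays could not have reversed it. With 1 ESC array, the spread of ESC was not measured. The list medians, whose alternatives were chosen after seeing the data, kept their sign under centring and quantile normalization.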
